A study of Mus musculus with 9 samples.

Results

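The naive pluripotency transcription factors described here are 10 genes, Klf2, Klf4, Klf5, Esrrb, Tfcp2l1, Tbx3, Nr0b1, Prdm14, Zfp42 and Nr5a2. They were taken by name, and all 10 were found among the 18504 named genes of the deposited expression table. Naive pluripotency is the state of the inner cell mass before implantation, which mouse embryonic stem (ES) cells hold in culture while LIF acts through STAT3 and Wnt signalling relieves repression by TCF7L1. These factors bind many of the same regulatory regions as Pou5f1 and Sox2, activate each other, and are lost when cells move on to the formative and primed states. Several of them stand in for each other, so that the loss of a single member is often tolerated.

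Polyadenylated RNA was sequenced from 9 libraries in 8 groups, all of the mouse ES cell line J1, derived from the strain 129S4/SvJae and used between passages 5 and 7. Undifferentiated cells overexpressing Yap1 gave the library Yap1_OE, which is set against BirA. A knockout label was carried by Yap1_KO1 and Yap1_KO2, set against ESC. Knockdown of Yap1 gave Yap1_KD1, set against a library titled Control and called the knockdown control here. A knockdown of the same number in differentiated cells gave dESC_Yap1_KD1 (the differentiated knockdown), set against dESC_control (the differentiated control). Yap1 is the coactivator held in the cytoplasm by Hippo kinases, which reaches DNA through TEAD proteins. The sources used here do not give the knockdown reagent, how or for how long cells were differentiated, or the number of clones. Each group other than the knockout-labelled one holds a single library.

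Values are FPKM, fragments scaled by transcript length and library size, so levels of different genes can be set side by side. Depth, estimated from the steps between low values, was lowest in Yap1_KO1 (9.19 M fragments, M for mega) and highest in the knockdown control (22.3 M). A 2 kb transcript at 1 FPKM thus drew on about 18.4 to 44.6 fragments. Yap1 RNA was at 139 FPKM in Yap1_OE against 46.7 in BirA, at 4.55 in Yap1_KD1 against 37.4 in the knockdown control, and at 12.5 in the differentiated knockdown against 78.0 in the differentiated control. The libraries labelled Yap1_KO1 and Yap1_KO2 kept 57.3 and 27.6 FPKM against 65.4 in ESC, so both still held Yap1 RNA, and directions given for them are those of the libraries so labelled. The ES cell markers Pou5f1, Nanog, Sox2, Sall4 and Utf1 were all at 1 FPKM or more in all 9 libraries, the differentiated ones included. In bulk RNA, fewer cells of a type and less RNA per cell cannot be told apart.

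All 10 factors were at 1 FPKM or more in every library. Zfp42, also called Rex1, a zinc-finger protein widely used as a reporter of the naive state, was the most abundant member in each of the 7 undifferentiated libraries, at 277 to 456 FPKM. Prdm14, a zinc-finger protein of the PR-domain family that represses Dnmt3b and FGF signalling genes, was the least abundant member in all 9 libraries and lay between 7.25 and 22.1 FPKM before differentiation. The 10 factors summed to 524 FPKM in the differentiated knockdown and 342 FPKM in the differentiated control, against 1014 to 1592 FPKM before differentiation. The order of levels changed with differentiation. The most abundant member was Klf2 in the differentiated knockdown and Klf5 in the differentiated control.

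**Figure D1:**
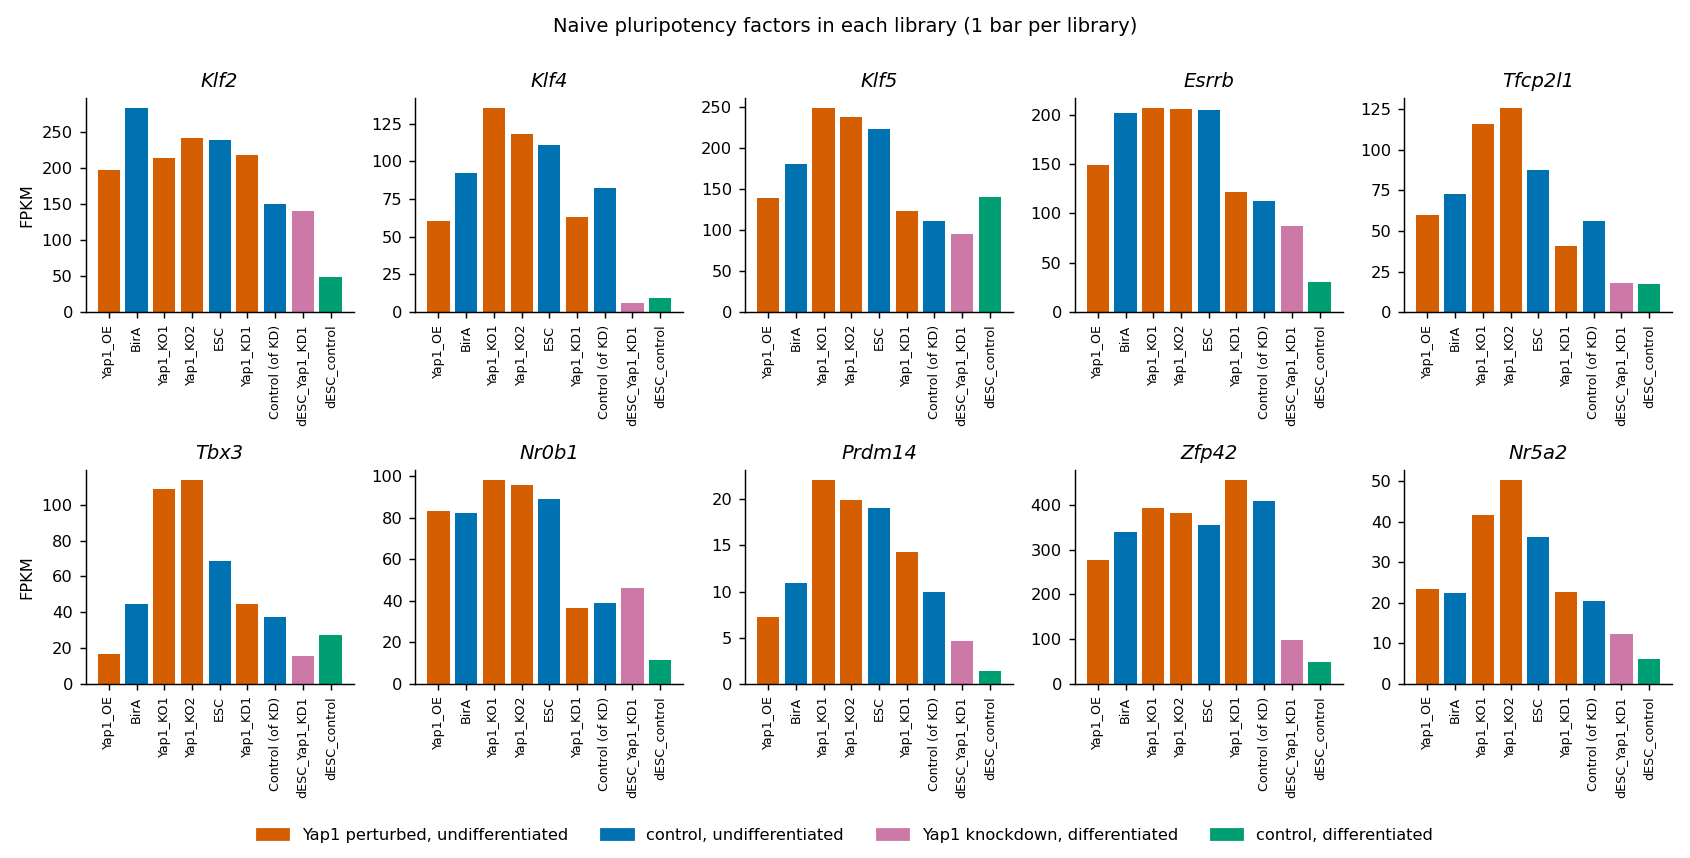
FPKM of the 10 factors, 1 panel per gene and 1 bar per library, with the perturbed library of each arm left of its control. Klf4 falls to 5.83 and 9.10 FPKM in the 2 differentiated libraries, whereas Klf5 stays at 95.4 and 141 FPKM.

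Differentiation of control cells asked how far the naive factors are lost when Yap1 is intact. Of the 10 factors, 8 fell in the differentiated control, and Klf5 and Tbx3 did not pass the test. The falls that passed spanned log2 ratios of -3.24 for Klf4 to -1.91 for Nr5a2. The test set the differentiated control against the 3 undifferentiated controls (limma on log2(FPKM + 1), Benjamini-Hochberg adjusted over 12871 genes, threshold 0.05). Of all genes tested, 24.1% passed in either direction and 9.66% were lower, against 8 of 10 members lower. The median log2 ratio was -2.28 over the members and 0.0041 over all genes.

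Among the Kruppel-like factors, which bind GC-rich and CACCC-type sites, Klf4 stood at 9.10 FPKM in the differentiated control, against 92.2 in BirA, 111 in ESC and 82.5 in the knockdown control. Its log2 ratio was -3.24 with a standard error (SE) of 0.20 and an adjusted p of 0.000866 (limma). Klf2 stood at 48.6 FPKM in the differentiated control, against 283 in BirA, 239 in ESC and 149 in the knockdown control (log2 ratio -2.13, SE 0.36, limma adjusted p = 0.0145). Both genes were below each of the 3 controls. Klf5, which also serves the trophectoderm of the blastocyst, stood at 141 FPKM, against 181 in BirA, 223 in ESC and 111 in the knockdown control. The Klf5 level of the differentiated control thus lay inside the range of its controls (log2 ratio -0.23, SE 0.38, limma adjusted p = 0.699), and it was 127% of the knockdown control alone.

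Among the nuclear receptors, Esrrb, an orphan receptor that TCF7L1 represses, stood at 30.3 FPKM in the differentiated control, against 202 in BirA, 205 in ESC and 113 in the knockdown control. It fell with a log2 ratio of -2.43 (SE 0.37, limma adjusted p = 0.0107). Nr5a2, a receptor that binds regulatory regions of Pou5f1, stood at 6.03 FPKM against 22.3, 36.2 and 20.3 in the same order of controls (log2 ratio -1.91, SE 0.34, limma adjusted p = 0.0173). Nr0b1, an X-linked receptor relative that lacks the usual DNA-binding domain and acts through partners such as Esrrb and Nr5a2, stood at 11.5 FPKM against 82.4, 89.0 and 38.8. All 3 were below every undifferentiated library, but the knockdown control was already lower in Nr0b1 than the other controls. The Nr0b1 call (log2 ratio -2.42, SE 0.48, limma adjusted p = 0.0226) was lost without BirA (adjusted p = 0.0715), without Yap1_KO1 (0.0577) and without Yap1_KO2 (0.0578), and its adjusted p ranged from 0.00237 to 0.0715 over 14 alternatives. The Nr5a2 call was lost without BirA (limma adjusted p = 0.0511), with a range of 0.00688 to 0.0511.

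Tfcp2l1, a CP2-family factor that LIF induces through STAT3, stood at 17.6 FPKM in the differentiated control, against 72.9 in BirA, 87.8 in ESC and 55.9 in the knockdown control (log2 ratio -1.96, SE 0.26, limma adjusted p = 0.00725). Tbx3, a T-box factor that acts in ES cells downstream of PI3K and also serves extraembryonic endoderm, stood at 27.0 FPKM against 44.8, 68.8 and 37.1. Its log2 ratio of -0.82 (SE 0.34, limma adjusted p = 0.138) did not pass. Prdm14 stood at 1.39 FPKM against 10.9, 19.0 and 9.97 (log2 ratio -2.53, SE 0.37, limma adjusted p = 0.0096). This is close to 1 FPKM, where the added 1 in log2(FPKM + 1) understates the change, and the plain FPKM ratio to the knockdown control was 13.9%. Zfp42 stood at 49.7 FPKM against 339, 356 and 409 (log2 ratio -2.86, SE 0.15, limma adjusted p = 0.000557), and its controls averaged 368 ± 36.6 FPKM (SD, n = 3), a coefficient of variation of 9.96%, the lowest of the 10 members.

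Against the knockdown control alone, a comparison of 1 library with 1 and without a test, 8 members were at least 2-fold lower in the differentiated control on log2(FPKM + 1), where 10.1% of 12436 genes were lower by as much and 23.2% differed in either direction. Centring the libraries on the median gene moved this comparison by 0.16 on the log2 scale. The members' median log2 ratio was -1.80 relative to that shift and -1.64 as deposited. With centring, the calls of all genes against the 3 controls split into 1637 higher and 1683 lower, where the deposited scale gave 1865 and 1243. The differentiated control was below every undifferentiated library in 8 members (27.3% of all genes), the differentiated knockdown in 9 members (24.7% of all genes), and both in 7.

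The promoters of 4 members that fell are shown because matches to motifs of pluripotency factors or TEAD proteins were found in them. Each is the RefSeq window of 250 bases before to 50 bases after the annotated start on GRCm38.p6, read 5′ to 3′ along the gene, with motif matches in capitals. The motifs, searched on both strands, were the POU octamer ATTTGCAT, the TEAD core GGAATG, the STAT palindrome TTCNNNGAA, the ESRRB site AAGGTCA, the KLF box GGGNGTGG, the TCF core ATCAAAG and the SOX core ACAATG. Zfp42 lies on the minus strand at chr8:43306960-43307259 and holds the octamer, a KLF box and a TEAD core. Esrrb lies on the plus strand at chr12:86360867-86361166 (the first of 2 annotated promoters) and holds a STAT palindrome and a SOX core. Tfcp2l1 lies on the plus strand at chr1:118627695-118627994 and holds 2 KLF boxes. Nr5a2 lies on the minus strand at chr1:136953581-136953880 (the second of 2 annotated promoters) and holds a KLF box and a TEAD core.
Zfp42: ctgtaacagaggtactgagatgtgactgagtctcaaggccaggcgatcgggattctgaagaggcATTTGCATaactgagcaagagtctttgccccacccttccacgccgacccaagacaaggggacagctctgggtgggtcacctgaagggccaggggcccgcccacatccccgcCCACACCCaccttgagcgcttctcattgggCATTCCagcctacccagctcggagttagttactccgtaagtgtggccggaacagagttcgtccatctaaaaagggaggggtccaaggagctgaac
Esrrb: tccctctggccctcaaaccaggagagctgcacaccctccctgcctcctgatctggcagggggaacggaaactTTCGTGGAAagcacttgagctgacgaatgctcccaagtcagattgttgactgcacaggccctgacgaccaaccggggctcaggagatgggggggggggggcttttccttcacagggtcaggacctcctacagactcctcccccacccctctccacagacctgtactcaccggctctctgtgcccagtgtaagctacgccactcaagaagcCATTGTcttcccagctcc
Tfcp2l1: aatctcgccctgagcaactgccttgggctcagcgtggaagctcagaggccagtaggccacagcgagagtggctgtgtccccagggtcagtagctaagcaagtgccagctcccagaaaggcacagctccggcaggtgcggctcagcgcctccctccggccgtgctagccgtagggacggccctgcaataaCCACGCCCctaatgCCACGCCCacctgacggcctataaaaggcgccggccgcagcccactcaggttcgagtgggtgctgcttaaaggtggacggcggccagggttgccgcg
Nr5a2: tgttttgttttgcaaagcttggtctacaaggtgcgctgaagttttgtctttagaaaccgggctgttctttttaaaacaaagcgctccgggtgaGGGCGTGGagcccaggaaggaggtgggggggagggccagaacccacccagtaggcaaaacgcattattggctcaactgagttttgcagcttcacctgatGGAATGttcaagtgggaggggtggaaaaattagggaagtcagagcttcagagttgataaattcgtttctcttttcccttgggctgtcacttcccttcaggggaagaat

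Counted from the annotated start, the octamer of Zfp42 began at -186, its KLF box at -75 and its TEAD core, read as CATTCC on the gene's strand, at -45. The STAT palindrome of Esrrb began at -178 and its SOX core at 33. The KLF boxes of Tfcp2l1 began at -61 and -47, and in Nr5a2 the KLF box began at -157 and the TEAD core at -58. Promoter windows were matched for 7 of the 10 members, and Klf5, Tbx3 and Prdm14 had no entry. Of the 7, 3 held a KLF box, 2 a TEAD core and 1 each an octamer, a STAT palindrome and a SOX core. These counts are by gene, with 2 windows each for Esrrb and Nr5a2, so they are not on the scale of shares per window. Of all 32851 promoter windows, 17.6% held the KLF box, 14.7% the TEAD core, 1.74% the octamer, 8.3% the STAT palindrome and 12.6% the SOX core. The ESRRB site (4.72% of all windows) and the TCF core (3.73%) had no match in the 7 members. These matches are letters in a window and show no binding.

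The differentiated knockdown asked whether the naive factors are lost to the same extent when Yap1 RNA is reduced. In the differentiated knockdown, Nr0b1, Prdm14, Klf2, Esrrb, Nr5a2 and Zfp42 stood above the differentiated control by 4.02-fold to 1.98-fold in FPKM. Tfcp2l1 stood at nearly the same level, while Klf4, Klf5 and Tbx3 stood below it. None of the 10 passed the test across all genes, in which 1.65% of 12871 genes passed, 0.171% higher and 1.48% lower (limma). At an unadjusted p under 0.05 there were 5 members and 12.2% of all genes, and a p that misses the threshold does not show that the levels were alike.

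The members above the differentiated control came from several protein families. Nr0b1 was at 46.2 FPKM in the differentiated knockdown against 11.5 in the differentiated control (log2 ratio 1.92, SE 0.58, limma adjusted p = 0.261). Esrrb was at 86.9 FPKM against 30.3 (log2 ratio 1.49, SE 0.45, limma adjusted p = 0.253). Klf2 was at 141 FPKM against 48.6 (log2 ratio 1.52, SE 0.44, limma adjusted p = 0.239). These 3 and Prdm14 were the members at least 2-fold higher on log2(FPKM + 1), 4 of 10, where 1.71% of 11845 genes were higher by as much and 6.48% differed in either direction. Prdm14 was at 4.63 FPKM against 1.39 (log2 ratio 1.24, SE 0.45, limma adjusted p = 0.364). Zfp42 was at 98.3 FPKM against 49.7 and came nearest to the threshold (log2 ratio 0.97, SE 0.18, limma adjusted p = 0.0889, range 0.0624 to 0.28 over 14 alternatives). Nr5a2 was at 12.3 FPKM against 6.03 (log2 ratio 0.92, SE 0.42, limma adjusted p = 0.5).

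The other members did not share this direction. Tfcp2l1 was at 18.0 FPKM in the differentiated knockdown against 17.6 in the differentiated control (log2 ratio 0.04). Klf4 was at 5.83 FPKM against 9.10 (log2 ratio -0.56, limma adjusted p = 0.467), Klf5 at 95.4 against 141 (log2 ratio -0.56, limma adjusted p = 0.823) and Tbx3 at 15.7 against 27.0 (log2 ratio -0.75, adjusted p = 0.618). The Kruppel-like factors therefore lay on both sides, with Klf2 above and Klf4 and Klf5 below the differentiated control. The median log2 ratio was 0.94 over the members and -0.0056 over all genes.

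Calls in this pair of single libraries rest on the spread of the undifferentiated controls and the knockout-labelled pair. Without the knockdown control in the fit, Nr0b1 (limma adjusted p = 0.0282, range 0.0282 to 0.475 over 14 alternatives) and Esrrb (adjusted p = 0.0314, range 0.0314 to 0.471) passed. Their log2 ratios of 1.92 and 1.49 do not use that library, which enters only the estimate of the spread. In the other 13 alternatives no member passed.

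**Figure D2:**
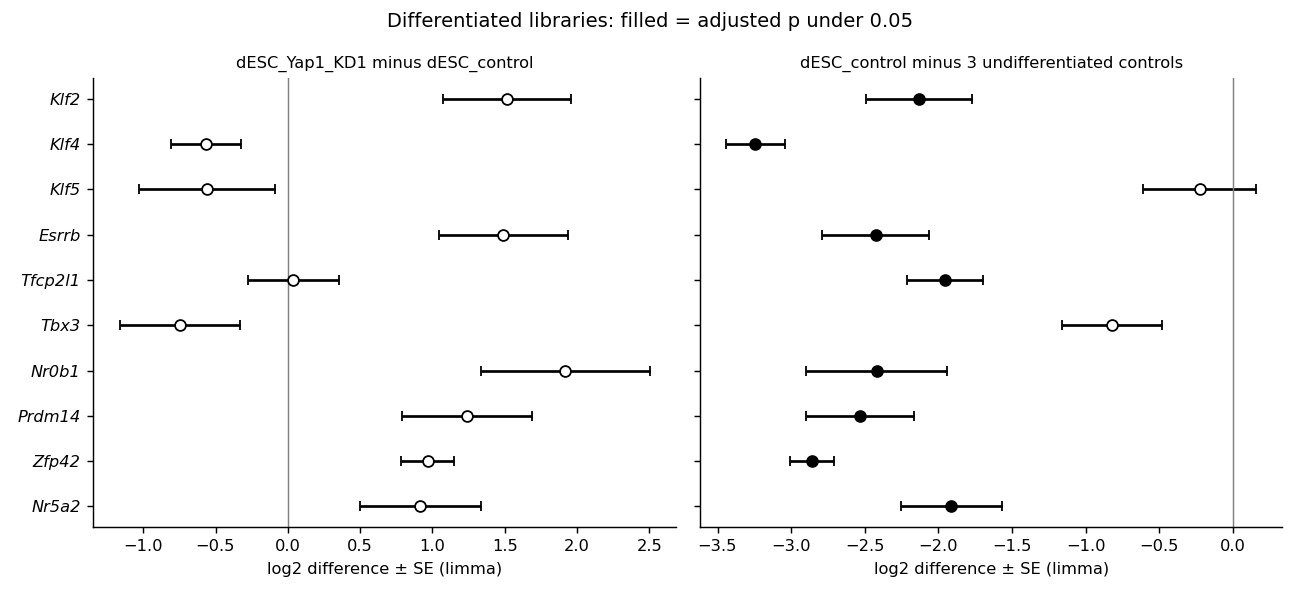
Log2 differences of log2(FPKM + 1) with their standard errors from limma, for the differentiated knockdown minus the differentiated control (left) and the differentiated control minus the 3 undifferentiated controls (right), with filled points where the adjusted p is under 0.05. The 8 filled points are all on the right, and on the left Nr0b1, Klf2 and Esrrb have the highest values at 1.92, 1.52 and 1.49.

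Set against their own undifferentiated library, the members kept different shares of their level with and without the knockdown. Nr0b1 kept 126% of its undifferentiated FPKM in the knockdown arm and 29.6% in the control arm. Its level in Yap1_KD1, 36.6 FPKM, was the lowest of the 7 undifferentiated libraries. The differentiated knockdown, at 46.2 FPKM, stayed below BirA (82.4) and ESC (89.0). Esrrb kept 71.4% in the knockdown arm and 26.9% in the control arm. Klf2 kept 64.5% and 32.5%, Nr5a2 54.0% and 29.6%, Tfcp2l1 44.6% and 31.4%, Prdm14 32.3% and 13.9%, and Zfp42 21.6% and 12.2%, in the knockdown arm and the control arm. Klf4 kept 9.19% in the knockdown arm and 11.0% in the control arm, the lowest share of the 10 members in both arms. Klf5 and Tbx3 had the lower share in the knockdown arm, 77.6% against 127% for Klf5 and 35.2% against 72.8% for Tbx3. The 127% rests on the knockdown control, which held the lowest Klf5 level of the undifferentiated libraries, 111 FPKM.

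**Figure D3:**
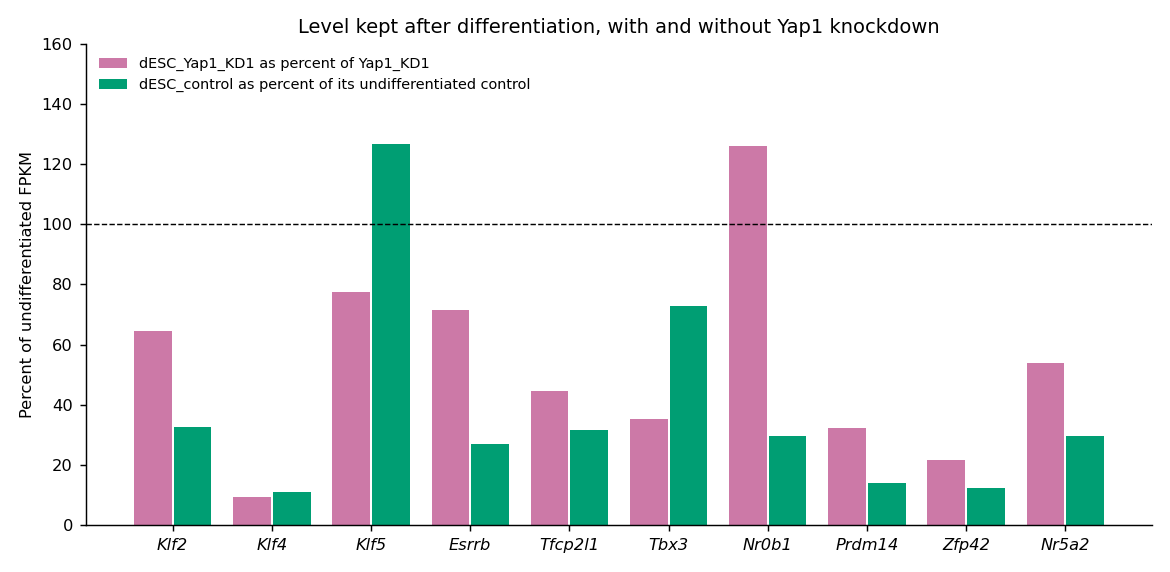
FPKM after differentiation as a percent of the undifferentiated library of the same arm, for the knockdown arm and the control arm, 1 library per value, with the dashed line at 100. A total of 7 factors keep more in the knockdown arm, and Klf4, Klf5 and Tbx3 keep less.

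In the test of the differentiated knockdown against the undifferentiated knockdown library, 2 members fell, Klf4 and Zfp42, where 11.7% of all genes passed in either direction and 4.86% were lower. Klf4 was at 5.83 FPKM in the differentiated knockdown against 63.4 in Yap1_KD1 (log2 ratio -3.24, SE 0.24, limma adjusted p = 0.00582). Zfp42 was at 98.3 FPKM against 456 (log2 ratio -2.20, SE 0.18, limma adjusted p = 0.00646). Both calls held in all 14 alternatives. Prdm14, Tbx3 and Tfcp2l1 had log2 ratios of -1.45, -1.45 and -1.12 (limma adjusted p = 0.0947, 0.0813 and 0.0786). The count was 5 without ESC, with these 3 added at limma adjusted p = 0.0202, 0.0202 and 0.0415. It was 3 without the knockdown control, with Tfcp2l1 added at limma adjusted p = 0.0312. With centred libraries it was 4, with Tfcp2l1 (limma adjusted p = 0.0425) and Tbx3 (0.0473) added, and with the GC trend removed it was 3, with Tbx3 added (limma adjusted p = 0.0332). Over 14 alternatives the adjusted p ranged from 0.0202 to 0.177 for Prdm14, from 0.0202 to 0.16 for Tbx3 and from 0.0312 to 0.158 for Tfcp2l1. Without a test, 5 members were at least 2-fold lower, against 10.4% of 12281 genes, of which 20.7% differed in either direction. The test against Yap1_KD1 set 1 library against 1, whereas the differentiated control was tested against 3 libraries. On simulated data the test against Yap1_KD1 recovered 3% of planted 2-fold and 56% of 4-fold changes. The rates were 20% and 74% for the differentiated control, so the counts of members that fell in these tests are not on the same scale.

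The difference between the knockdown effect in differentiated and in undifferentiated cells was tested as its own contrast. It gave 0 members past the threshold, where 0.497% of all genes passed (limma), with 4 members and 9.07% of all genes at an unadjusted p under 0.05. Nr0b1 had a difference of 2.75 on the log2 scale (SE 0.75, limma adjusted p = 0.348) and Esrrb of 1.95 (SE 0.58, limma adjusted p = 0.392). With each arm set against its own labelled control, an alternative chosen after seeing the data, the differences were smaller, 1.998 for Nr0b1 (limma adjusted p = 0.18) and 1.38 for Esrrb (limma adjusted p = 0.224), and neither passed. Without the knockdown control, which is the labelled control of that arm, the 2 differences were 3.12 (limma adjusted p = 0.0131, range 0.0131 to 0.668) and 2.23 (adjusted p = 0.0253, range 0.0253 to 0.717), and both passed.

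Yap1 overexpression asked what more Yap1 does to the factors in undifferentiated cells. Tbx3 was the member that stood furthest from the controls, at 16.4 FPKM in Yap1_OE against 44.8 in BirA, or 36.6% of it. It was the lowest Tbx3 level of the 7 undifferentiated libraries, and Tbx3 was the 1 member at least 2-fold from BirA, where 2.35% of 11599 genes were lower by as much and 3.95% differed in either direction. Against the 3 undifferentiated controls its log2 ratio was -1.51 (SE 0.34, limma adjusted p = 0.205). In that limma test 0 members and 0.295% of all genes passed, with 3 members and 12.7% of all genes at an unadjusted p under 0.05. The genes that passed were 31 higher and 7 lower, and 36 and 17 with centring.

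Most other members stood below BirA in the overexpression library, though not all of them stood below the other controls. Klf4 was at 60.7 FPKM in Yap1_OE against 92.2 in BirA, Prdm14 at 7.25 against 10.9, and Klf2 at 197 against 283. Esrrb was at 149 FPKM against 202, Klf5 at 139 against 181, Zfp42 at 277 against 339 and Tfcp2l1 at 59.8 against 72.9. Of these, Klf2, Esrrb, Klf5 and Tfcp2l1 lay inside the range of the 3 controls, above the knockdown control at 149, 113, 111 and 55.9 FPKM. Klf4, Prdm14 and Zfp42 lay below all 3 controls. The 10 factors summed to 1014 FPKM in Yap1_OE, 1330 in BirA and 1027 in the knockdown control. Nr0b1 was at 83.3 FPKM against 82.4 and Nr5a2 at 23.3 against 22.3, the 2 members level with their control (with GC content corrected for, the sign for Nr5a2 turns, and with centring that for Nr0b1). The median log2 ratio to BirA was -0.40 over the members and 0.019 over all genes. The 8 trophoblast markers summed to 207 FPKM in Yap1_OE against 32.9 in BirA, with 6 and 4 of them at 1 FPKM or more. Krt8 and Krt18 made up most of that sum, Elf5 was listed at 0 in Yap1_OE, and Cdx2 was at 0.97 against 0.033 FPKM. Their part in the members' levels was not tested.

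In the libraries labelled Yap1_KO1 and Yap1_KO2 the members stood near or above ESC, and Tbx3 was again the furthest. Tbx3 was at 109 and 114 FPKM in Yap1_KO1 and Yap1_KO2 against 68.8 in ESC. These were the 2 highest Tbx3 levels of the 9 libraries, at 1.58-fold and 1.66-fold of ESC. The 3 undifferentiated controls themselves differed by up to 1.85-fold in Tbx3. The log2 ratio of the knockout-labelled libraries to ESC was 0.69 (SE 0.096, limma adjusted p = 0.15, range 0.0571 to 0.281 over 7 alternatives). Tfcp2l1 was at 116 and 126 FPKM against 87.8 (log2 ratio 0.45, SE 0.10, limma adjusted p = 0.153), and Nr5a2 at 41.6 and 50.3 against 36.2 (log2 ratio 0.33, SE 0.15, limma adjusted p = 0.28). None of the 10 passed, where 0.173% of 11538 genes did (limma, 1 residual degree of freedom), with 2 members and 23.1% of all genes at an unadjusted p under 0.05. No member was 2-fold from ESC in either library, against 2.29% and 2.36% of genes.

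The remaining members differed little between the knockout-labelled libraries and ESC. Esrrb was at 206 and 206 FPKM against 205, Klf2 at 214 and 241 against 239, and Zfp42 at 394 and 383 against 356. Klf4 was at 135 and 118 FPKM against 111, Klf5 at 249 and 239 against 223, Nr0b1 at 98.0 and 95.6 against 89.0 and Prdm14 at 22.1 and 19.9 against 19.0. The sign was positive in 9 members and negative in Klf2, and with GC content corrected for it turned for Klf2 in the test. With centring it turned for Esrrb, whose log2 ratio was 0.0074 as deposited. Against all 3 undifferentiated controls, Tbx3 had a log2 ratio of 1.18 (SE 0.27, limma adjusted p = 0.137), and 0 members passed where 0.00777% of genes did, with 4 members and 21.9% of genes at an unadjusted p under 0.05.

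In the undifferentiated knockdown library no member was 2-fold from the knockdown control, where 1.01% of 11861 genes were. Klf2 was at 218 FPKM in Yap1_KD1 against 149 in the knockdown control, and Prdm14 at 14.3 against 9.97. Tfcp2l1 was at 40.5 FPKM against 55.9 and Klf4 at 63.4 against 82.5. Tbx3 was at 44.6 against 37.1, Zfp42 at 456 against 409, Klf5 at 123 against 111, Esrrb at 122 against 113, Nr5a2 at 22.7 against 20.3 and Nr0b1 at 36.6 against 38.8. Thus 7 members stood above their own control and 3 below it. Against the 3 undifferentiated controls the split turned to 3 above and 7 below (median log2 ratio -0.29), with Tbx3, Klf5, Esrrb and Nr5a2 at -0.12, -0.42, -0.46 and -0.16. In that test 0 members passed, where 0.101% of genes did (limma), with 2 members and 6.4% of genes at an unadjusted p under 0.05.

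Tfcp2l1, Klf4 and Nr0b1 stood above ESC in both knockout-labelled libraries and below the knockdown control in Yap1_KD1. Klf2 had a log2 ratio of -0.075 against ESC (0.25 with GC content corrected for) and of 0.54 against the knockdown control. In the joint fit of both arms, each with its own control, Tbx3 had the highest log2 ratio, 0.50 (SE 0.14, limma adjusted p = 0.66). The value for Tfcp2l1 was 0.064, and that for Klf4 was -0.054 and turned positive with GC content corrected for. Here 0 members passed, where 0.0165% of 12128 genes did (limma, 2 residual degrees of freedom), with 1 member and 6.75% of genes at an unadjusted p under 0.05.

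**Figure D4:**
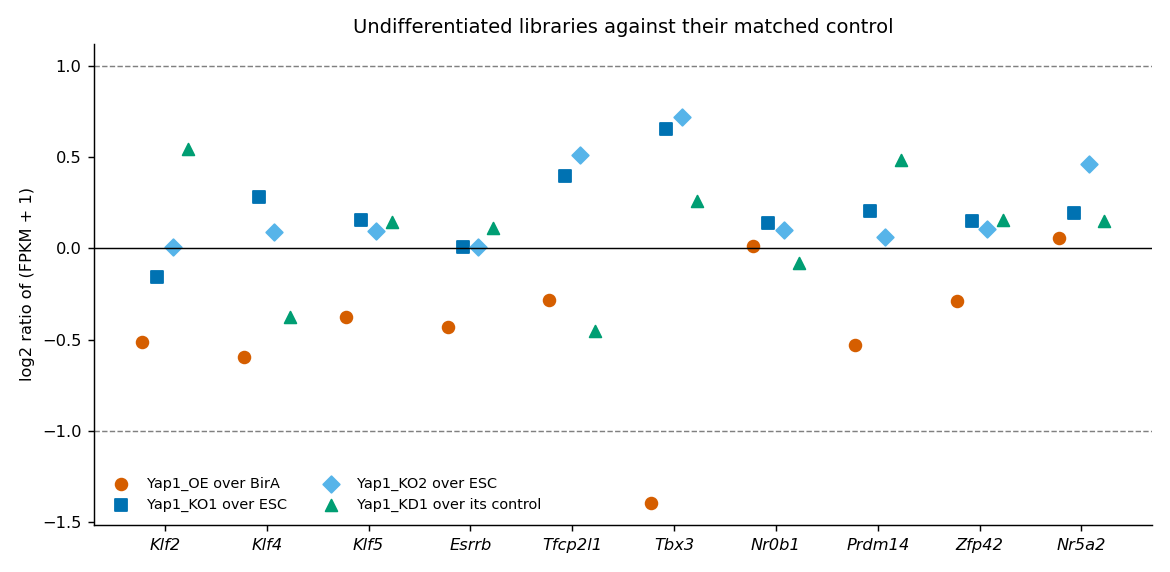
Log2 ratio of (FPKM + 1) of each undifferentiated perturbed library to its labelled control, 1 symbol per library pair, with dashed lines at 2-fold. Tbx3 in Yap1_OE, at -1.39, is the 1 point beyond the lines, and Tbx3 in the knockout-labelled libraries, at 0.65 and 0.72, is the highest.

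The controls themselves differed in these genes. The knockdown control stood below ESC in 9 of 10 members, with a median log2 ratio of -0.83 over the members and -0.011 over all genes. Nr0b1 was at 38.8 FPKM in the knockdown control against 89.0 in ESC, the 1 member at least 2-fold apart, where 1.91% of 11807 genes were lower by as much and 4.93% differed in either direction. Klf5 was at 111 FPKM against 223 and Esrrb at 113 against 205. Zfp42 was the exception at 409 FPKM against 356. Over all genes 357 were higher and 225 lower in the knockdown control, a split of 478 and 159 with centring and 547 and 100 with GC content corrected for. BirA stood closer to ESC, with 0 members 2-fold apart (1.82% of genes) and a median log2 ratio of -0.26. Over the 3 controls Nr0b1 averaged 70.1 ± 27.3 FPKM and Klf4 95.2 ± 14.4 FPKM (SD, n = 3 each).

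The neighbouring pathway genes were followed through the differentiated control against the 3 undifferentiated controls, where 24.1% of all genes passed (limma throughout, adjusted over all genes). Of 16 other naive-state genes, 11 fell and 0 rose, with a median log2 ratio of -2.09. Their lowest were Tcl1, an AKT cofactor (log2 ratio -3.05, limma adjusted p = 0.00122), and Fbxo15, an F-box protein gene driven by Pou5f1 and Sox2 (-2.70, adjusted p = 0.000467), and their highest were Gdf3 and L1td1 (-0.30 and -0.43, not passed). Among 4 core factors, Sox2 fell (log2 ratio -2.20, limma adjusted p = 0.00126) and Nanog fell (-1.55, adjusted p = 0.00432). Pou5f1 and Sall4 did not pass (-0.39 and 0.14), and Pou5f1 was still at 927 FPKM in the differentiated control.

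The signalling inputs to the naive factors were mixed. Of 8 LIF and STAT3 genes, 3 fell and 2 rose. The feedback inhibitor Socs3 fell (log2 ratio -2.99, adjusted p = 0.0163 in limma), as did the receptor chain Lifr (-1.78, adjusted p = 0.00194), while the ligand Lif rose (2.31, adjusted p = 0.00167) and the kinase Jak1 rose (0.54, adjusted p = 0.0487). Of 7 Wnt and TCF7L1 genes, 4 rose and 0 fell, led by the Wnt targets Sp5 (5.34, limma adjusted p = 0.00104) and Axin2 (2.67, adjusted p = 0.00316), with Ctnnb1 and Tcf7l1 at -0.067 and 0.30 (not passed). Of 8 FGF and ERK genes, 3 rose and 1 fell. The ERK phosphatase Dusp6 rose (1.73, limma adjusted p = 0.0122) and so did the receptor Fgfr1 (1.58, adjusted p = 0.00568), the inhibitor Spry4 fell (-1.31, adjusted p = 0.0374) and Etv4 did not pass (-1.03).

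Of 12 formative and primed genes, 5 rose and 1 fell. Fgf5, the classical marker of the formative epiblast, was under 1 FPKM in every undifferentiated library and at 16.6 FPKM in the differentiated control (log2 ratio 4.06). It is counted among the 5 but entered the test through the differentiated libraries alone, so the direction of its change was fixed by the filter. The POU factor Pou3f1 rose (3.27, limma adjusted p = 0.00919). Tcf15 fell (-1.78, limma adjusted p = 0.0116) and Foxd3 did not pass. Of 17 family relatives of the members, 13 were past 1 FPKM in some library, of which 2 rose and 1 fell. The Kruppel-like relatives Klf6 and Klf7 rose (2.65, limma adjusted p = 0.00161, and 1.53, adjusted p = 0.00713), Klf3 fell (-1.23, adjusted p = 0.0079), and Prdm1 did not pass (-0.74).

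In the differentiated knockdown against the differentiated control, where 1.65% of all genes passed, 2 of the 16 other naive-state genes rose and 0 fell, with a median log2 ratio of 0.70. Fgf4, the ligand made by naive cells, was at 46.2 FPKM in the differentiated knockdown against 13.4 in the differentiated control (log2 ratio 1.72, limma adjusted p = 0.0287). Pecam1, an adhesion molecule of naive cells chosen after its values were seen because it was the other gene that passed, was at 14.7 FPKM against 5.02 (1.38, limma adjusted p = 0.0329). Tdh did not pass (1.63, limma adjusted p = 0.114), and the lowest were Dppa4 and Gbx2 (0.069 and 0.23). Of the core, signalling, formative and relative lists 0 genes passed in either direction (limma). Sox2 was at 182 FPKM in the differentiated knockdown against 76.3 in the differentiated control (log2 ratio 1.25, limma adjusted p = 0.0578), and Otx2 and Zic2 were the highest of the formative genes (1.71 and 1.56, limma adjusted p = 0.141 and 0.0933). The formative list had a median log2 ratio of 0.89.

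Markers of other cell types moved in the differentiated libraries. The 6 primitive streak and mesoderm markers were each under 1 FPKM in all 7 undifferentiated libraries and entered the tests through the differentiated libraries alone, so the direction of their change was fixed by the filter and no count of them is given. T, the mesoderm factor Brachyury, was at 19.96 FPKM in the differentiated knockdown and 70.7 FPKM in the differentiated control. Of 7 measured trophoblast markers, 6 rose in the differentiated control against the 3 undifferentiated controls, where 14.5% of all genes did (limma). Cdx2 was among these 6 through the differentiated libraries alone, so its direction was fixed by the filter and its rise is no support for the count. Krt8 had the highest log2 ratio of the trophoblast markers, 6.19 (limma adjusted p = 0.000467). The 6 streak and mesoderm markers summed to 33.5 FPKM in the differentiated knockdown and 120 FPKM in the differentiated control, and to 0.953 to 1.56 FPKM in the undifferentiated libraries, with 3, 6 and 0 of them at 1 FPKM or more. The 8 trophoblast markers summed to 197 FPKM in the differentiated knockdown and 1390 FPKM in the differentiated control, with 7 of 8 at 1 FPKM or more in each. Krt8 and Krt18 made up most of both sums, at 65.3 and 102 FPKM in the differentiated knockdown and 486 and 832 in the differentiated control. Hand1 was at 7.97 against 27.1 FPKM, Gata3 at 1.97 against 11.3, and Eomes at 12.7 against 22.0. Cdx2 was at 3.97 against 6.87, Ascl2 at 3.15 against 3.74, and Elf5 under 1 FPKM in both. The neuroectoderm, primitive endoderm and feeder fibroblast lists summed to 58.1, 6.49 and 9.04 FPKM in the differentiated knockdown and to 66.8, 10.3 and 10.4 FPKM in the differentiated control, with 1 feeder marker at 0 in each. These sums hide opposite moves in the differentiated control against the 3 undifferentiated controls. The highest and lowest log2 ratios were 4.22 (Nes) and -1.46 (Tubb3) for neuroectoderm and 2.02 (Dab2) and -2.12 (Lama1) for primitive endoderm. For feeder markers they were 1.69 (Col1a1) and -2.25 (Thy1).

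Against the differentiated control, 2 of 7 trophoblast markers and 1 of 2 measured feeder markers fell in the differentiated knockdown, where 1.48% of all genes did (limma). The feeder marker that fell, Col1a1, was at 0.44 FPKM against 5.73, while the other, Thy1, stood higher at 8.21 against 3.40. Thy1 was also at 4.64 FPKM in Yap1_OE and up to 39.2 in Yap1_KO1. Krt8, a keratin of simple epithelia, was at 65.3 FPKM in the differentiated knockdown against 486 in the differentiated control (log2 ratio -2.88, limma adjusted p = 0.0386). The trophoblast calls and those of Fgf4 and Pecam1 depend on the libraries that set the spread. Without Yap1_KO1, without Yap1_KO2 or without BirA, 0 trophoblast and 0 naive-state genes passed (limma). Without ESC 3 and 0 passed, and without the knockdown control 1 and 1. The members' values and those of the lineage markers come from the same 2 libraries, and the part of cell type makeup in the members' levels was not tested.

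Genes other than the members with the profile most like the members' mean were sought among 8278 genes, those of the other lists included. The measure was the root mean square (RMS) difference of centred log2(FPKM + 1) values over the 9 libraries. The closest was Fzd5, a Wnt receptor, with an RMS difference of 0.13. It stood at 11.1 FPKM in the differentiated knockdown and 7.20 in the differentiated control, and between 25.6 and 56.1 in undifferentiated libraries. Kat6b, a histone acetyltransferase, followed at 0.13, with 12.8 FPKM in the differentiated knockdown and 8.99 in the differentiated control. Gsta3, Gltscr1l, Rinl, Ildr1, Ly75 and Hmces came next, at 0.19 to 0.22. By comparison, the members themselves lay between 0.18 (Nr5a2) and 0.76 (Klf4) from their own mean.

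Taken singly, members differed in how close a partner they had. The closest gene was Sox2 for Klf2 (RMS 0.21), Tdh for Esrrb (0.16), Fzd5 for Tfcp2l1 (0.19) and Gsta3 for Prdm14 (0.20). It was Slc6a8 for Klf5 (0.15), Gtsf1l for Zfp42 (0.19) and Hmces for Nr5a2 (0.19), and Esrrb for Nr0b1 (0.26), the 1 pair within the members. Tbx3 and Klf4 were the least matched, with Fbxo2 at 0.33 and Hap1 at 0.47. Among the members, Klf2 and Esrrb were the closest pair (0.24).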

How the data were processed

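Polyadenylated RNA of 9 libraries was sequenced on Illumina machines. The authors deposited one table of FPKM per gene and library, made with TopHat2 and Cuffdiff on mm9 per the submitters' processing notes. The table's header states no unit, so FPKM was taken from those notes and the values. Tool versions, gene annotation and strand setting are not stated in the material used here, and an exact 0 can be a failed estimate. Of 23277 rows, 4746 without a name and 27 turned into dates were left out, which leaves 18504 genes. Small RNA rows (169) took 16.0% to 23.8% of the FPKM of a library and stayed in.

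The tests were run in R 4.3.3 with limma 3.58.1 (variance trend switched on) on log2(FPKM + 1). Genes under 1 FPKM in all the libraries of a comparison were left out. P-values were adjusted by the Benjamini-Hochberg method over all genes tested, with a threshold of 0.05. A fold change on that scale understates the change of low genes. The differentiation, overexpression and knockdown tests came from 1 fit of all 9 libraries in which BirA, ESC and the knockdown control formed 1 group. The groups that hold 1 library are assumed to vary like those controls and the knockout-labelled pair, which leaves 3 residual degrees of freedom. Nothing in the labels says that libraries came from separate cultures or clones, so p-values measure the spread between these libraries, which may be technical. That spread also takes in differences between the 3 kinds of control, and the knockdown control stood below ESC in most members. Each perturbed library was also set against its labelled control, 1 against 1, by a 2-fold rule with no test. The scripts were tested on simulated data with changes of 2-fold and 4-fold planted in 100 genes each. The test of the knockout-labelled libraries against ESC recovered 0% of either size, as did the difference of knockdown effects. For the differentiated knockdown against the differentiated control, 6% and 65% were recovered. A member that did not pass in these tests is therefore not shown to be unchanged.

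The members and gene lists were chosen with earlier results of these data known. The genes named were all 10 members, Yap1, the trophoblast markers, and the 2 highest and 2 lowest genes of a list. Exceptions are stated as chosen after their values were seen. Also named were the 8 genes closest to the members' mean profile at a mean of 5 FPKM or more, and the closest gene of each member. Depth was estimated from 219 genes whose low values step in whole fragments (quartiles 12.5 M and 14.8 M fragments for BirA). GC content came from a GRCm38 annotation that covered 98.9% of genes, and promoter sequences from RefSeq with coordinates of GRCm38.p6. These coordinates are not those of the deposited mm9 values. Alternatives were other pseudocounts, filters, median centring, removal of a GC trend, small RNA rows left out, no variance trend, each control or knockout-labelled library left out in turn, and, chosen after seeing the data, the matched control of each arm.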

Additional observations from a re-analysis of the deposited data

How the results depend on the processing

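No value that passed changed direction under any alternative. Among members that passed in the differentiated control, the count was 6 to 8 with a library left out, against 8 as reported. For the differentiated knockdown against Yap1_KD1 the count was 2 as reported, 4 with centred libraries, 3 with the GC trend removed, 5 with the matched control of each arm and 2 to 5 with a library left out. For the differentiated knockdown against the differentiated control, and for the difference of the knockdown effects, it was 0 as reported and 0 to 2 with a library left out. The knockdown control against ESC had 1 member 2-fold apart as reported, 2 with a pseudocount of 0.1 and 0 with the GC trend removed. The cause was not tested. No test paired by replicate number was run, because the groups compared share fewer than 2 of them. Libraries were matched to their labelled control in the joint fit of both arms and in the matched-control alternative. Leaving out a knockout-labelled library gave no test against ESC, since no residual degree of freedom remained.

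Counts over all genes moved more. Called genes in the differentiated control were 3108 as reported and 1702 to 4072 otherwise, in the differentiated knockdown against its control 213 and 25 to 668, against Yap1_KD1 1507 and 444 to 2521, and in the difference of effects 64 and 2 to 455. They were 38 and 11 to 128 for Yap1_OE, 20 and 0 to 48 for the knockout-labelled libraries against ESC, 1 and 0 to 14 against all controls, 13 and 0 to 94 for Yap1_KD1, and 2 and 1 to 15 for both arms. The 2-fold counts, given as reported and then at pseudocounts of 0.1 and 5, were 768, 1225 and 324 for the differentiated pair, 458, 917 and 168 for Yap1_OE, 262, 601 and 98 for Yap1_KO1, 269, 543 and 98 for Yap1_KO2, 582, 1183 and 209 for the knockdown control against ESC, and 210, 473 and 87 for BirA against ESC. For Yap1_KD1 120 became 241 at 0.1 and 52 without small RNA rows, and at 5 the differentiation counts of 2539 (knockdown) and 2886 (control) became 959 and 1237. Prdm14, at 1.39 FPKM in the differentiated control, was the lowest member value.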
